A study of Mus musculus with 14 samples.

Results

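The Reg family of secreted C-type lectins was followed in mouse duodenal mucosa through the first hours of a meal. The 7 genes, Reg1, Reg2, Reg3a, Reg3b, Reg3d, Reg3g and Reg4, were those whose symbols the annotation of the Affymetrix MOE 430 v2.0 array gives alone to a probe set, and they held 8 of the 45037 probe sets tested and were 7 of the 18193 genes named. All mice were C57BL6 males bought at 12 weeks of age, kept for 2 weeks on LF diet and then fasted for 12 h. Each of 7 groups held 20 mice. The Fasting group received no meal. The groups LF30min, LF1h and LF3h had access to a LF meal (fat at 10% of calories) for the time in their name, and HF30min, HF1h and HF3h to a HF meal (60%). Mucosa was scraped from the opened duodenum, and the RNA of the 20 mice of a group was pooled and read on 2 arrays. Those 2 arrays are technical replicates of 1 pool, so every standard error and p-value given here covers array error and not the differences between mice.

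Reg proteins are small secreted proteins built around a single C-type lectin domain. In rodents Reg1 and Reg2 are best known from the exocrine pancreas, where acinar cells make them in quantity during injury and regeneration, and Reg3d has also been found in pancreas. Reg3b and Reg3g are antibacterial lectins of the intestinal epithelium, induced by bacteria through MyD88 and interleukin 22, and Reg4 is made by endocrine and secretory cells of the gut. In bulk tissue such as scraped mucosa, a lower level can come from fewer cells of a type or from less RNA per cell, which cannot be told apart here.

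The labelled tissue carried its markers. The 14 measured enterocyte genes, among them Vil1, Alpi, Fabp1 and Apoa1, had pool means between 8.90 and 14.39 (log2), all above 6 in every pool. Against the fasting pool 1 of them fell at LF3h, where 2.28% of all genes fell, and 1 rose at HF3h, where 2.97% rose. The array medians lay at 4.47 to 4.55, and Pearson's r between the paired arrays was 0.9958 to 0.9971. Markers of other tissues moved between pools. Those of pancreatic acinar and islet cells and of stomach were among them, and their values are set beside the Reg genes below.

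In the RefSeq annotation of GRCm38.p6, 6 of the genes form a cluster on chromosome 6 in the order Reg3b, Reg3d, Reg3a, Reg2, Reg1, the pseudogene Gm52853 and Reg3g, with Reg3d and Reg3g on the minus strand, and Reg4 lies on chromosome 3. The 250 bases before the annotated start of Reg2 and Reg3d, which both rose at LF1h, HF1h and HF3h, are shown with motif matches in capitals. The first motif is CACCTG, a form of the E-box CANNTG bound by basic helix-loop-helix factors. The other is TGGGAA or its reverse complement TTCCCA, the core bound by RBPJ and its acinar relative RBPJL.
Reg2, chr6:78404905-78405154, + strand: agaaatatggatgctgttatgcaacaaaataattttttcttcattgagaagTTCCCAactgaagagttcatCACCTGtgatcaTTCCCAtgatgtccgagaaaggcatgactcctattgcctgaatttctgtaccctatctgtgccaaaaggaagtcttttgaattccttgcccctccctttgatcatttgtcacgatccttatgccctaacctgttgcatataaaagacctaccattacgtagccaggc
Reg3d, chr6:78378866-78379115, - strand: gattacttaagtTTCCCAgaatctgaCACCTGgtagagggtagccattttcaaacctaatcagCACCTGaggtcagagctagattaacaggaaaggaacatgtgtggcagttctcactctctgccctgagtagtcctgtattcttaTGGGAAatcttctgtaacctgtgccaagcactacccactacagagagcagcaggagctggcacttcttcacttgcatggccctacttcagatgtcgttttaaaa

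Reg3b and Reg3g, which shared another course, and Reg1, which stayed level, are shown for contrast with the same capitals.
Reg3b, chr6:78370635-78370884, + strand: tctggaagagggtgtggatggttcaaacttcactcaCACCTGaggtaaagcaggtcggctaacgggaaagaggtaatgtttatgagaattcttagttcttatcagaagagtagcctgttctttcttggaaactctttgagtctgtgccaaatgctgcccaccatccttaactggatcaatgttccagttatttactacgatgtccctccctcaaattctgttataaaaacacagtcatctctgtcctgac
Reg3g, chr6:78468875-78469124, - strand: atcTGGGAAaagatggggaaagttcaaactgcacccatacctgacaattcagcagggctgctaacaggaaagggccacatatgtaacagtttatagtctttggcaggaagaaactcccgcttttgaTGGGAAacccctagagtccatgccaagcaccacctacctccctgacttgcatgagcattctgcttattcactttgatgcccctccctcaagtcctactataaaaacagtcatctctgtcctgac
Reg1, chr6:78425733-78425982, + strand: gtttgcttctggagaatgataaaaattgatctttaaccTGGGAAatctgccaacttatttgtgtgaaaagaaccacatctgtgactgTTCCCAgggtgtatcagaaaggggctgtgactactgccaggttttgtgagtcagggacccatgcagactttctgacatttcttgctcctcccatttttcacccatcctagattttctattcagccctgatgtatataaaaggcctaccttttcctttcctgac

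Of the 32851 RefSeq promoter windows of this length, 17.2% held the CACCTG form of the E-box on either strand, 21.6% held the RBPJ core and 3.91% held both. Reg2, Reg3a and Reg3d held both, although Reg3a had no difference between pools that passed the test over all probe sets given below. This E-box form was found in 5 of the 7 Reg windows and not in those of Reg1 and Reg3g, and the RBPJ core was found in 5 and not in those of Reg3b and Reg4. In Reg2 the E-box lay 179 bases before the start, between inverted RBPJ cores at 199 and 167 bases. E-boxes of any form were in 7 of 7 windows and in 66.2% of all promoters.

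A STAT-type motif, TTCNNNGAA, was in 7.02% of all promoters and in 2 Reg windows. That of Reg3b began 129 bases before the start and that of Reg3d 238 bases, where it overlapped an inverted RBPJ core. A TATA box, TATAAA, was in 12.4% of all promoters and lay 27 to 30 bases before the start in Reg1, Reg2, Reg3b and Reg3g. Reg3g held another match at 161 bases, on the opposite strand. The windows of Reg3b and Reg3g were the most alike of the 21 pairs, with 177 identical aligned bases (70.8% of 250), followed by Reg1 and Reg2 with 64.8%. The narrower E-box form and the TATA box were added to the search after the windows had been read, and a match of letters is a description and not a site of binding.

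**Figure D1:**
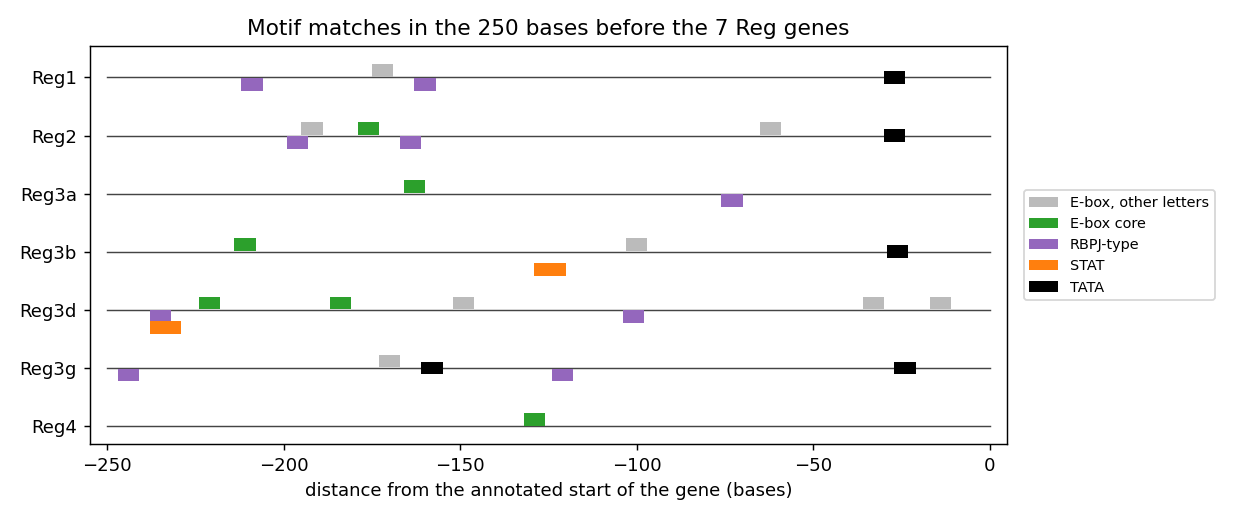
Position of each motif match in the 250 bases before the 7 Reg genes; the horizontal axis is the distance in bases from the annotated start, and coloured blocks are matches on either strand, green for the CACCTG form of the E-box, grey for its other forms, purple for the RBPJ core, orange for the STAT-type motif and black for the TATA box. Reg2, Reg3a and Reg3d hold both green and purple blocks, and a black block lies 27 to 30 bases before the start in Reg1, Reg2, Reg3b and Reg3g. Reg3g has another black block at 161 bases.

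The Reg genes did not divide into Reg1 and Reg2 on one side and the Reg3 genes and Reg4 on the other. Reg2 and Reg3d both rose at LF1h, HF1h and HF3h, but Reg2 alone of the pair rose at LF30min, and from HF1h to HF3h Reg2 fell by 0.67 while Reg3d had 0.35. Reg3g rose at 30 min after both meals and further at HF1h, and Reg1, Reg3a, Reg3b and Reg4 passed the test in no comparison by their brightest probe set. Over the 7 genes and 6 comparisons with the fasting pool, which make 42 values, 10 rose and 1 fell at an adjusted p under 0.05 (limma, Benjamini-Hochberg over all probe sets), and 3 of these, all of Reg2, were also at least 2-fold, the study's rule for a modulated gene. The share of all probe sets that passed lay between 0.469% and 5.57% depending on the pool. By pool, 2 of the 7 genes passed at LF30min against 0.469% of all probe sets, 2 at LF1h against 1.49%, 1 at LF3h against 4.88%, 1 at HF30min against 0.97%, 3 at HF1h against 0.953% and 2 at HF3h against 5.57%. The modulated share of all probe sets was 0.0799% at LF30min, 0.224% at LF1h and 0.107% at HF1h, where Reg2 was modulated, and 0.226% at LF3h, 0.151% at HF30min and 0.393% at HF3h, where no Reg gene was. All 6 comparisons share the 2 fasting arrays, so they are not independent of each other.

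**Figure D2:**
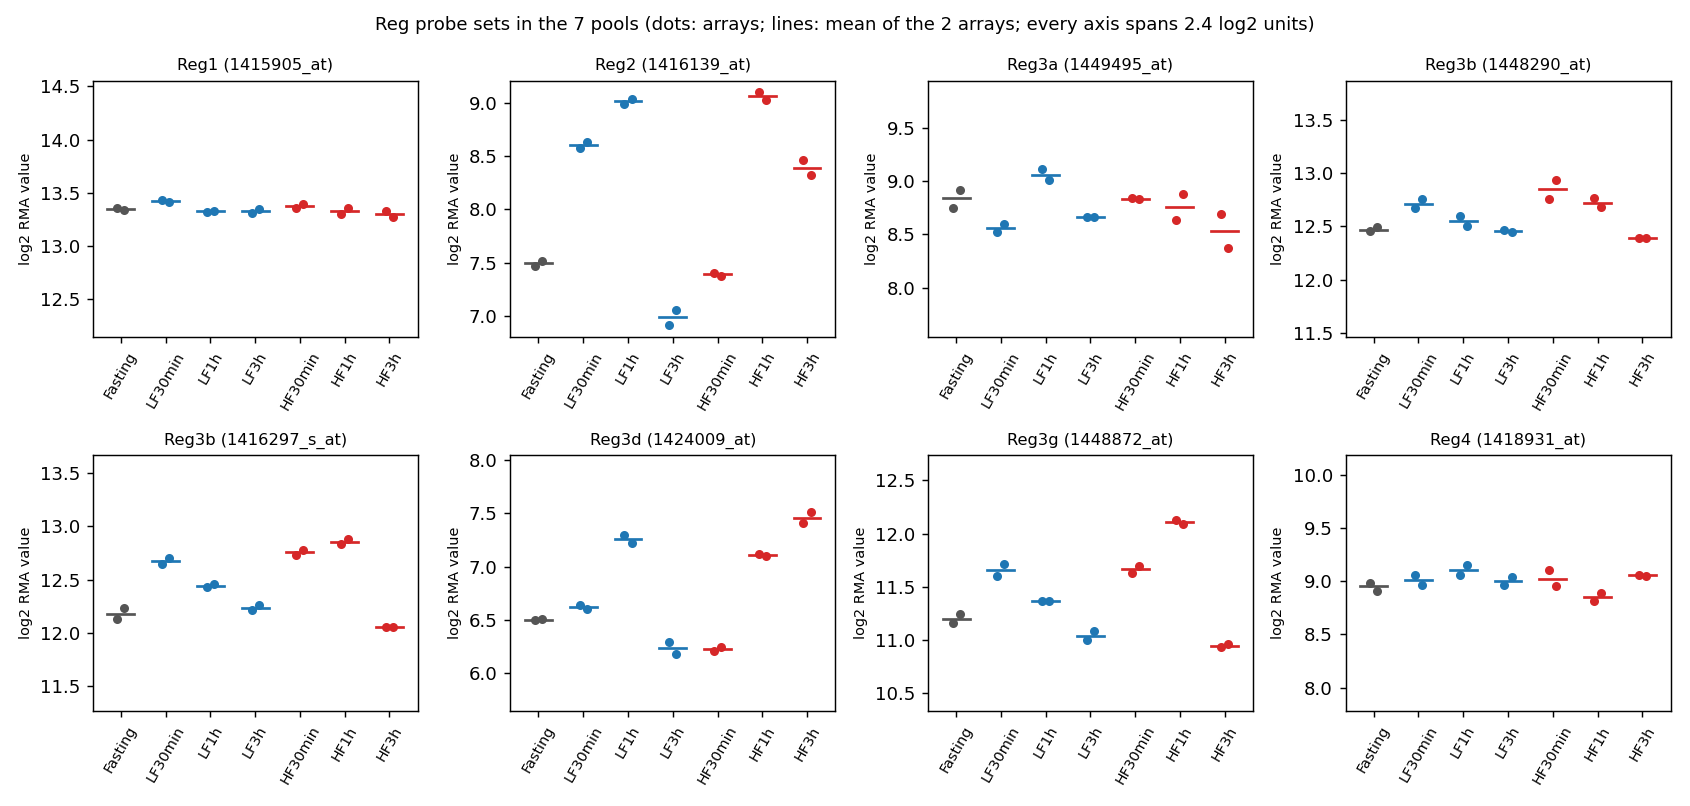
Log2 RMA value of each Reg probe set (vertical axes, each spanning 2.4 log2 units and none starting at 0) in the 7 pools (horizontal axis); dots are the 2 arrays of a pool and lines their mean, grey for Fasting, blue for LF and red for HF. Reg2 covers 2.08 log2 units from LF3h to HF1h, Reg3d 1.23 and Reg3g 1.16, whereas Reg1 covers 0.12.

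Reg2 had the widest course of the family. Its probe set 1416139_at read 7.47 and 7.52 on the 2 fasting arrays, 8.58 and 8.63 at LF30min, 8.99 and 9.04 at LF1h, and 6.91 and 7.06 at LF3h (log2 values). After the HF meal it read 7.40 and 7.37 at 30 min, 9.10 and 9.03 at 1 h, and 8.46 and 8.32 at 3 h. The level was therefore high in the LF pool from 30 min to 1 h and below fasting by 3 h, whereas in the HF pools it was still at the fasting level at 30 min and high at 1 h and 3 h. Only the 2 highest pools, LF1h and HF1h, had arrays that overlapped each other. Against fasting, Reg2 was 2.16-fold higher at LF30min (1.11 on the log2 scale, with a standard error of 0.09 and adjusted p = 1.3e-05 in limma), 2.87-fold higher at LF1h (1.52, adjusted p = 3.3e-07) and 2.97-fold higher at HF1h (1.57, adjusted p = 4.2e-07). The rise at HF3h was 1.86-fold (0.89, adjusted p = 2.9e-05). Reg2 fell by 0.51 at LF3h (adjusted p = 0.0037), and its difference of -0.11 at HF30min did not pass (adjusted p = 0.66, 95% interval -0.30 to 0.08). The range of its pool means, 2.08, was larger than that of 99.8% of the genes.

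Reg1, its neighbour in the cluster, was level throughout. Probe set 1415905_at read 13.36 and 13.34 in the fasting pool, 13.43 and 13.41 at LF30min, 13.32 and 13.33 at LF1h, and 13.31 and 13.35 at LF3h. In the HF pools it read 13.36 and 13.40 at 30 min, 13.30 and 13.36 at 1 h, and 13.33 and 13.27 at 3 h. The pool means covered 0.12 log2 units, and 2.81% of genes had a smaller range. Log2 fold changes from fasting lay between -0.05 and 0.07, with a standard error of 0.08, and none of the 13 comparisons passed. Reg1 was near the top of the scale, where 18 genes had a higher mean and the array maxima were 14.34 to 14.41. Of those 18 brighter genes, 13 had a larger range than Reg1, and 1, the pancreatic elastase gene Cela3b, ranged by more than 0.5, from 13.22 to 14.02. Whether the Reg1 probes were saturated was not tested.

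Reg3d, in mouse a gene next to Reg3b, rose in 3 of the 4 pools in which Reg2 rose. Probe set 1424009_at read 6.50 and 6.51 in the fasting pool, 6.64 and 6.60 at LF30min, 7.30 and 7.22 at LF1h, and 6.29 and 6.18 at LF3h. In the HF pools it read 6.21 and 6.25 at 30 min, 7.12 and 7.10 at 1 h, and 7.41 and 7.51 at 3 h. The LF1h, HF1h and HF3h arrays all lay above the arrays of every other pool, and HF30min and LF3h overlapped each other at the bottom. Reg3d rose 1.68-fold at LF1h (0.75 with a standard error of 0.08, adjusted p = 0.00014), 1.52-fold at HF1h (0.60, adjusted p = 0.0018) and 1.94-fold at HF3h (0.96, adjusted p = 8.1e-06). At LF30min, where Reg2 was already up, Reg3d had a log2 fold change of 0.12 (adjusted p = 0.8, 95% interval -0.06 to 0.30). Its values of -0.27 at HF30min (adjusted p = 0.17) and -0.27 at LF3h (adjusted p = 0.087) did not pass. Both passed when only probe sets that reached a log2 value of 6 were tested (adjusted p = 0.022 and 0.0087 in limma). The value at LF3h also passed after quantile normalization (0.045) and when the probe sets of each gene were averaged (0.028).

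Reg3g, which kills Gram-positive bacteria, rose early after both meals. Probe set 1448872_at read 11.16 and 11.25 in the fasting pool, 11.60 and 11.72 at LF30min, 11.37 and 11.37 at LF1h, and 11.00 and 11.09 at LF3h. In the HF pools it read 11.63 and 11.70 at 30 min, 12.13 and 12.09 at 1 h, and 10.94 and 10.96 at 3 h. The 30 min pools of both meals overlapped each other above fasting, HF1h stood alone at the top, and both 3 h pools lay below fasting. The rise was 1.87-fold at HF1h (0.90 with a standard error of 0.08, adjusted p = 6.7e-05), 1.37-fold at LF30min (0.45, adjusted p = 0.028) and 1.38-fold at HF30min (0.47, adjusted p = 0.016). The rise at LF30min did not pass without Fasting replicate 1 (adjusted p = 0.34) or 2 (0.11) or LF30min replicate 1 (0.067) or 2 (0.23), and that at HF30min without Fasting replicate 1 (0.21) or 2 (0.062) or HF30min replicate 1 (0.08) or 2 (0.15). The values at LF1h (0.17), LF3h (-0.16) and HF3h (-0.25, adjusted p = 0.11) did not pass.

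Reg3b, the closest relative of Reg3g among the promoters compared, had 2 probe sets that gave different calls. The brighter one, 1448290_at, read 12.46 and 12.49 in the fasting pool, 12.67 and 12.76 at LF30min, 12.60 and 12.50 at LF1h, 12.47 and 12.45 at LF3h, 12.76 and 12.94 at HF30min, 12.77 and 12.68 at HF1h, and 12.39 and 12.39 at HF3h. None of its changes from fasting passed, the highest being 0.38 at HF30min (adjusted p = 0.065). That difference passed when only probe sets that reached a log2 value of 6 were tested (adjusted p = 0.0071 in limma) and after quantile normalization (0.034). It also passed under eBayes with trend and robust settings (2.7e-06), and Reg3b passed there by the mean of its probe sets (0.0016). In the other alternatives read by this probe set it did not pass. The other, 1416297_s_at, read 12.13 and 12.23 in the fasting pool, 12.65 and 12.70 at LF30min, 12.43 and 12.46 at LF1h, 12.21 and 12.26 at LF3h, 12.73 and 12.78 at HF30min, 12.83 and 12.88 at HF1h, and 12.05 and 12.05 at HF3h. By this probe set Reg3b rose by 0.49 at LF30min (adjusted p = 0.012), 0.58 at HF30min (adjusted p = 0.0019) and 0.67 at HF1h (adjusted p = 0.00059). Both probe sets put LF30min, HF30min and HF1h highest and HF3h lowest, as Reg3g did. The ending _s_at marks a set whose probes match several transcripts of the array's design, so which transcripts it read is uncertain.

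Reg3a and Reg4 passed in no comparison, although 3 differences of Reg3a did so when only probe sets that reached a log2 value of 6 were tested (adjusted p = 0.017 to 0.043 in limma). Reg3a, by probe set 1449495_at, read 8.75 and 8.92 in the fasting pool, 8.52 and 8.60 at LF30min, 9.11 and 9.01 at LF1h, 8.66 and 8.66 at LF3h, 8.84 and 8.83 at HF30min, 8.64 and 8.88 at HF1h, and 8.69 and 8.37 at HF3h. Its widest difference between neighbouring times, 0.50 from LF30min to LF1h, had an adjusted p of 0.085, and its arrays of 1 pool differed more than those of the other members (pooled SD 0.121 against 0.028 to 0.065). Reg4, by 1418931_at, read between 8.81 and 9.15 on all 14 arrays, with pool means from 8.85 at HF1h to 9.10 at LF1h. Its range of 0.25 was larger than that of 35.6% of genes. Its log2 fold changes from fasting lay between -0.09 and 0.15.

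**Figure D3:**
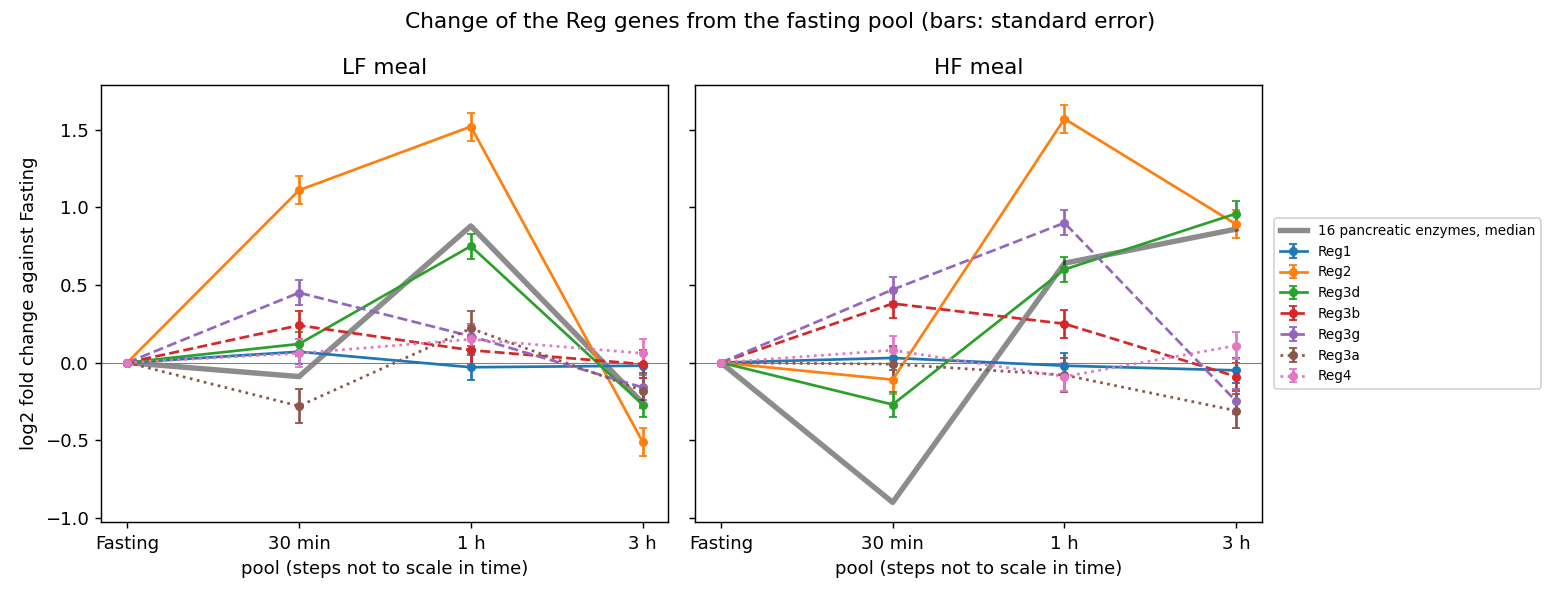
Log2 fold change from the fasting pool (vertical axis) at 30 min, 1 h and 3 h (horizontal axis, not to scale in time) after the LF meal (left) and the HF meal (right); points are the Reg genes by their brightest probe set, bars are standard errors, and the thick grey line is the median of the 16 measured pancreatic enzymes. Reg3d runs close to the grey line except at HF30min, where it is at -0.27 and the enzymes at -0.90, and Reg2 lies above it at LF30min (1.11 against -0.09), LF1h (1.52 against 0.88), HF30min (-0.11 against -0.90) and HF1h (1.57 against 0.64). Single enzymes lay between 0.37 and 2.1 at LF1h and between 0.32 and 1.7 at HF1h, so Reg2 was within their spread there. They lay between -0.31 and 0.02 at LF30min and between -1.07 and -0.36 at HF30min, where Reg2 was above all of them.

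At the same time after the meal, the HF and LF pools differed in Reg2, Reg3d and Reg3g. Of 21 values, 3 were higher and 1 was lower after the HF meal, and 2 and 1 of these were at least 2-fold, where 0.0622%, 0.0244% and 0.195% of all probe sets were modulated at 30 min, 1 h and 3 h. At 30 min 1 of the 7 genes passed, against 0.442% of all probe sets: Reg2 was 2.33-fold lower at HF30min than at LF30min (log2 difference -1.22, 95% interval -1.41 to -1.03, adjusted p = 9.3e-06). At 1 h 1 gene passed, against 0.191%: Reg3g was 1.67-fold higher at HF1h than at LF1h (0.74, 95% interval 0.56 to 0.92, adjusted p = 0.0015). That call was lost (adjusted p = 0.13) when only the 4 arrays of these pools were fitted. At 3 h 2 genes passed, against 1.82%: Reg2 was 2.65-fold higher at HF3h than at LF3h (1.41, 95% interval 1.22 to 1.59, adjusted p = 4.9e-07), and Reg3d 2.34-fold higher (1.23, 95% interval 1.05 to 1.40, adjusted p = 9.6e-07). Reg2 did not differ beyond array error at 1 h (0.05, 95% interval -0.14 to 0.23), nor Reg3g at 30 min (0.01, -0.17 to 0.19) or at 3 h (-0.10, -0.28 to 0.08). The intervals for Reg1 all lay within -0.20 and 0.17.

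**Figure D4:**
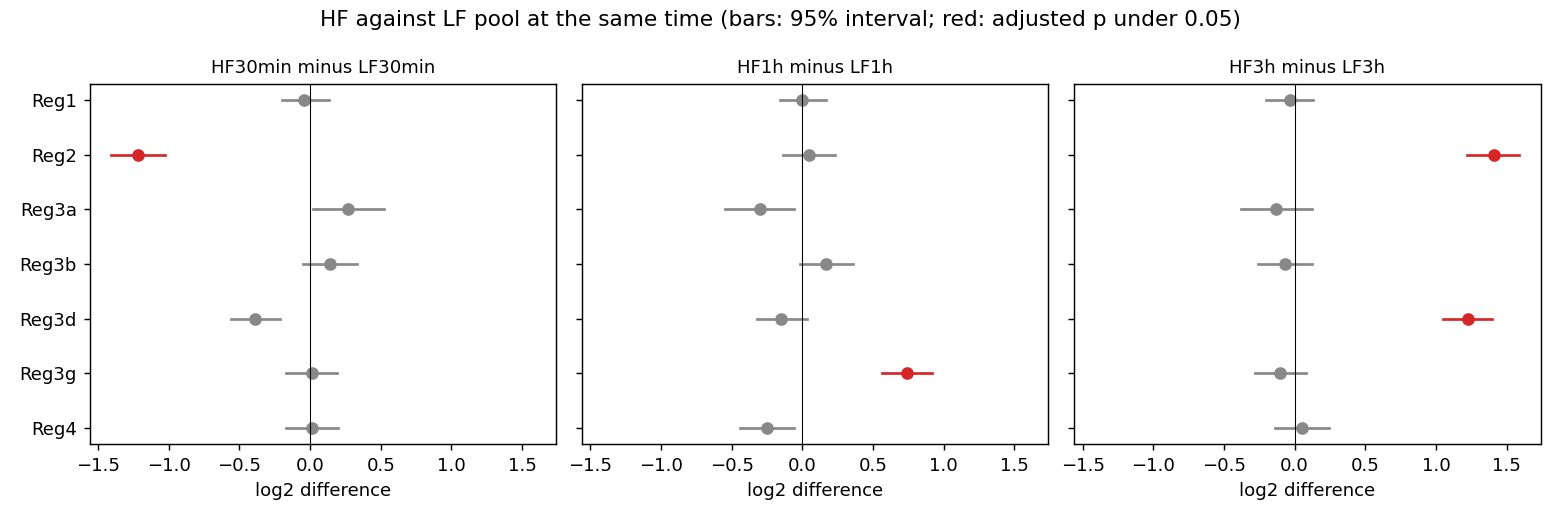
Difference in log2 value between the HF and the LF pool (horizontal axis) for the 7 Reg genes (vertical axis) at 30 min, 1 h and 3 h; points are differences, bars 95% intervals, and red marks an adjusted p under 0.05. Reg2 lies at -1.22 at 30 min and 1.41 at 3 h, Reg3d at 1.23 at 3 h and Reg3g at 0.74 at 1 h.

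Within a meal, the steps from one time to the next do not use the fasting mean, although the fasting arrays enter the shared estimate of the spread. From LF30min to LF1h 1 gene passed (0.624% of all probe sets), Reg3d with 0.63 (adjusted p = 0.0011), while Reg2 had 0.41 (adjusted p = 0.053). From LF1h to LF3h 2 genes passed (2.36%), with Reg2 4.09-fold lower (-2.03, adjusted p = 3.3e-08) and Reg3d 2.03-fold lower (-1.02, adjusted p = 7.7e-06). From HF30min to HF1h 3 genes passed (1.04%), with Reg2 3.2-fold higher (1.68, adjusted p = 5e-08), Reg3d 1.83-fold higher (0.87, adjusted p = 3.4e-05) and Reg3g 1.36-fold higher (0.44, adjusted p = 0.023, but 0.087 to 0.17 without any one of the arrays of these pools). From HF1h to HF3h 3 genes passed (1.89%). Reg3g was 2.23-fold lower (-1.16, adjusted p = 5e-06) and Reg2 1.59-fold lower (-0.67, adjusted p = 0.00086), whereas Reg3d went up by 0.35 (adjusted p = 0.044, but 0.052 to 0.25 without any one of the 14 arrays). By its other probe set Reg3b fell by 0.80 at this step (adjusted p = 9.6e-05). Over the 28 values 5 rose and 4 fell, and 4 were at least 2-fold, against 0.16%, 0.2%, 0.224% and 0.129% of all probe sets modulated at the 4 steps in this order.

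Pancreatic acinar transcripts rose at LF1h, HF1h and HF3h, where Reg2 and Reg3d rose, but not at LF30min, where Reg2 rose. They fell at HF30min, where neither gene passed in the test over all probe sets. The list of pancreatic enzymes held 16 measured genes, among them the lipase cofactor gene Clps and the kallikrein gene Klk1. Of these 16, 0 passed at LF30min (median log2 fold change -0.09), 16 rose at LF1h (0.88) and 4 fell at LF3h (-0.26). In the HF pools 14 fell at HF30min (-0.90), 15 rose at HF1h (0.64) and 16 rose at HF3h (0.86). Medians of all genes lay between -0.024 and 0.012. The summed linear level of the 16 genes was 74600 on both fasting arrays, 69800 to 70900 at LF30min, 122000 to 123000 at LF1h, 61900 to 62800 at LF3h, 42800 to 42900 at HF30min, 109000 to 110000 at HF1h and 118000 at HF3h. Among them Prss3, a trypsinogen gene, rose by 2.10 at LF1h and Pla2g1b, the pancreatic phospholipase A2, by 1.57. Of 15 other acinar genes 11 rose at LF1h (0.96), 10 at HF1h (0.93) and 12 at HF3h (1.15), and 6 fell at HF30min (-0.40). Between HF3h and LF3h all 16 enzymes were higher in the HF pool (median 1.16, beside 1.41 for Reg2 and 1.23 for Reg3d), and at 30 min 13 were lower in the HF pool (-0.78, beside -1.22 and -0.39). At LF30min, in contrast, Reg2 was up by 1.11 with 0 of 16 enzymes passing. At HF30min, against the enzyme median of -0.90, Reg2 had -0.11 (adjusted p = 0.66) and Reg3d -0.27 (adjusted p = 0.17). That fall of Reg3d passed when only probe sets that reached a log2 value of 6 were tested (adjusted p = 0.022 in limma). The part of acinar RNA in the Reg2 and Reg3d results was not tested.

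Gastric and Brunner gland transcripts followed another course. Their summed level over 11 measured genes was 1780 to 1800 in the fasting pool, 11700 at LF30min, 14700 to 14800 at HF30min and 7550 to 7640 at HF3h, with Gkn3, a gastrokine, up by 6.57 at HF30min and Gkn2 by 3.77 at LF30min. The 30 min pools are those in which Reg3g, and Reg3b by its other probe set, rose, but at HF1h, where Reg3g was highest, the sum was 2310 to 2340 and 1 of the 11 genes passed. The part of this tissue in the Reg3g and Reg3b values was not tested. Of 8 Paneth cell products, 2 rose at HF30min, Mptx1 by 1.03 and Ang4 by 0.62, and 4 fell at HF3h, where Itln1 had -0.55. Mptx1 went from 3.79 to 4.81 and was 1 of 3 genes of this list under a log2 value of 6 in all pools. Of 12 goblet cell products 1 rose at each of LF30min, HF30min and HF3h, with Agr2 up by 0.84 at HF30min. Of 6 measured islet genes, 3 were higher at HF30min and 3 at HF3h, and 2 were lower at LF30min and 2 at LF3h. Ins2, an insulin gene, fell by 2.05 at LF3h. Of the 6 genes, 4 were under a log2 value of 6 in all pools, among them Ppy, which went from 4.6 to 5.34 at HF30min. The summed level of the 6 islet genes ran from 238 to 264 at LF3h up to 2140 to 2200 at HF30min. The 15 enteroendocrine genes had 1 or 0 passing in every fed pool. Of all 18193 genes, 0.335% rose and 0.066% fell at LF30min, and 0.759% rose and 0.363% fell at HF30min. At LF3h 3.13% rose and 2.28% fell, and at HF3h 2.97% rose and 3.7% fell.

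The pathway that induces Reg3b and Reg3g was read from 22 measured genes of interleukin 22 and MyD88 signalling. Socs3, a feedback inhibitor of STAT3 signalling, rose in all 6 fed pools, by 1.13, 1.79 and 0.57 at 30 min, 1 h and 3 h of the LF meal and by 0.96, 0.88 and 0.54 of the HF meal. Nfkbiz, an inducible regulator of NF-kB target genes, fell by 0.56 at LF30min, 1.03 at LF1h, 0.49 at HF1h and 0.63 at HF3h. The genes of the receptor chain Il22ra1, of Stat3, of the adaptor Myd88 and of the cytokine Il18 passed in none of the 6 comparisons. Medians of the list lay between -0.05 and 0.02. Socs3 was highest at LF1h, a pool in which Reg3g had 0.17, and was also up at LF30min, HF30min and HF1h, where Reg3g rose. The part of this pathway in the Reg3b and Reg3g values was not tested. Of 21 other host defence genes of the epithelium, 15 were under a log2 value of 6 in all pools, where a value may hold mostly background. At most 2 of the 21 passed in a pool, at HF3h, where 2.97% of all genes rose and 3.7% fell. Those that passed included Sprr1a, with 0.79 at HF3h, Wfdc2, with 0.69 at HF30min (4.88 against 4.19), and Ccl28, which fell by 0.62 at HF3h. Extl3, proposed as a receptor of Reg proteins, had pool means of 5.66 to 5.98 and did not pass.

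The likeness of courses was described by Pearson's r over the 7 pool means, in which the genes share each pool's mice, its arrays and any acinar or gastric RNA in it, and no test was made. Reg3b and Reg3g had r = 0.85 (0.96 by the other probe set of Reg3b), Reg2 and Reg3d 0.81, and Reg1 and Reg2 -0.13. With the mean of the pancreatic enzymes, Reg3d had 0.95 and Reg2 0.78, against -0.05 for Reg3g and -0.66 for Reg1, whose range was within 0.12. Among 1284 genes that ranged by at least 0.5, the 5 most like Reg3d were Slc38a5 (0.995), an amino acid transporter, Pla2g1b (0.979), Gal (0.978), Sycn (0.976), which encodes a zymogen granule protein, and Cela3b (0.974). Those most like Reg2 were Cldn4 (0.908), a tight junction gene, Nupr1 (0.904), a stress-induced regulator strongly expressed in injured pancreas, Mafk (0.869), Zfp36 (0.855) and Aqp12 (0.849), an acinar aquaporin. Those most like Reg3g were Il33 (0.979), an epithelial alarmin cytokine, Casp4 (0.956), an inflammatory caspase, Akr1b8 (0.938), Gpx2 (0.904), the gastrointestinal glutathione peroxidase, and Fbxo31 (0.902). The lists for Reg1, Reg3a, Reg3b and Reg4 were headed by Zfp217 (0.976), Cubn (0.901), Gmds (0.967) and Scd1 (0.765).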

How the data were processed

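Duodenal mucosa RNA, 1 pool of 20 mice per condition, was hybridised in duplicate, giving 14 arrays of 7 pools. The deposited log2 values were made by the authors, who subtracted background and normalized by Robust Multiarray Analysis (RMA), and base 2 is inferred from the method. The scanner files were not used here, so signal over background is unknown and a low value may hold mostly background. The 64 control probe sets among 45101 were left out. By the platform's annotation 34945 probe sets belong to a single gene (34741 updated through Entrez IDs), 932 to several and 9160 to none.

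One mean per pool was fitted to all 14 arrays in limma 3.58.1 (R 4.3.3) with moderated tests and Benjamini-Hochberg adjustment over 45037 probe sets within each of 13 comparisons: 6 of a fed pool with fasting, 3 of HF with LF and 4 between times of a meal. A change passed at an adjusted p under 0.05 and was modulated if also at least 2-fold. The fit had 7 residual and 6.4 prior degrees of freedom. The procedure was tested on simulated data.

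A gene was represented by its probe set with the highest mean. The genes named are the 7 members, up to 3 genes per list with the largest change that passed against fasting, and the 5 genes most like each member among those with a highest pool mean of at least 6 and a range of at least 0.5. Stat3, Myd88, Il22ra1, Il18 and Extl3 were also named, and markers as examples. The members and gene lists were chosen with earlier results of these data known, and the lists are described by counts and medians only. Changes between pools were tested within a probe set. Levels of different probe sets were compared in choosing a gene's probe set and in ranking Reg1 by its mean, and were added up in the summed levels. Promoter windows are RefSeq's (GRCm38.p6), matched by symbol for 7 of 7 genes, searched on both strands and aligned pairwise with Biopython 1.88. Figures were drawn with matplotlib 3.10.9 (Python 3.11.15). Alternatives were other p and fold thresholds, testing only probe sets that reached 6 (log2), other variance models and scalings, a replicate block, other probe set rules and each array left out in turn.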

Additional observations from a re-analysis of the deposited data

Results flagged for a closer look

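Some differences between the meals were themselves past the threshold of limma's test over all probe sets. Reg2 was lower after the HF meal at 30 min (log2 difference -1.22, adjusted p = 9.3e-06) and higher at 3 h (1.41, adjusted p = 4.9e-07). Reg3d was higher after the HF meal at 3 h (1.23, adjusted p = 9.6e-07). Reg3g was higher after the HF meal at 1 h (0.74, adjusted p = 0.0015), a call lost when only the arrays of these pools were fitted (adjusted p = 0.13). With 2 arrays per pool, no search for single outlying arrays was made.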

How the results depend on the processing

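Of 2093 values of Reg genes under 23 alternatives, 0 changed sign among called values, 35 lost and 40 gained the threshold, and 2018 did neither. All 10 calls of Reg2 held in every one of the 23. With a fold minimum of 1.5 the modulated values were 8 against fasting (3 at 2-fold) and 7 between times (4 at 2-fold), and with no fold minimum 11 and 9. Without each array in turn the counts were 3 to 4 against fasting, 3 to 3 between meals and 3 to 4 between times. The technical replicate numbers did not pair the arrays, since deviations of same-numbered arrays correlated at -0.19 to 0.15 over 21 pairs of pools. With the replicate number as a block the counts were 3, 3 and 4, and the step of Reg3d from HF1h to HF3h no longer passed (adjusted p = 0.064). The calls of Reg3g at LF30min and HF30min were lost in 5 alternatives each, and its step from HF30min to HF1h in 6. Fitted on the arrays of LF30min and LF1h alone, Reg3d did not pass between them (adjusted p = 0.12). Under eBayes with trend and robust settings Reg3b by its brighter probe set passed at LF30min (adjusted p = 0.0039), HF30min (2.7e-06) and HF1h (0.0014), and Reg3a at HF3h (0.019), between LF30min and LF1h (0.00068) and between LF1h and LF3h (0.0035). These 3 of Reg3a also passed when only probe sets that reached 6 were tested (0.043, 0.017 and 0.022). Between HF30min and LF30min Reg3d (-0.39) passed with that filter (adjusted p = 0.0046) and under trend and robust settings (0.017). It also passed there when the probe sets of each gene were averaged (0.014). Reading Reg3b by its other probe set was chosen after seeing the data. The cause of these changes was not tested. The number of arrays limits the precision, and with 1 pool per condition no value for the spread between mice can be had.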
